A study of Mus musculus with 8 samples.

Results

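The voltage-gated calcium channel pore subunits examined here are the 8 genes Cacna1a (P/Q type), Cacna1b (N type), Cacna1e (R type), Cacna1c and Cacna1d (L type) and Cacna1g, Cacna1h and Cacna1i (T type). They were chosen by gene name, and they make up 8 of the 23335 gene names and 11 of the 27207 rows of a single-cell count table of mouse cortical interneurons. A pore subunit carries the voltage sensors and the calcium-selective pore, and auxiliary alpha2delta and beta subunits govern how much of it reaches the membrane. Channels of P/Q, N and R type sit at nerve terminals, where the calcium they admit triggers vesicle fusion, whereas L type channels link activity in the cell body and dendrites to signaling in the nucleus and T type channels open near the resting potential. Release from parvalbumin-containing basket cells is known to depend mainly on P/Q type channels, and release from cholecystokinin-containing basket cells on N type channels.

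The study collected single neurons from frontal cortex of wild-type mice for work on co-expression networks. They were chandelier cells (ChC), interneurons that innervate the start of the pyramidal cell axon, and Pv cells, the fast-spiking parvalbumin class. ChC came from animals 1 and 2, aged 31 and 32 postnatal days, of genotype Nkx2.1-CreER; Ai14, in which tamoxifen given at E17.5 turned on a red fluorescent reporter. Pv cells came from animals 3 and 4, aged 29 and 35 postnatal days, of genotype Pv-ires-Cre; Ai14, so that the reporter marks any cell that has used the parvalbumin gene's locus and can hold some ChC. All 4 mice were female, red cells were picked by hand, each animal gave a pair of library batches of 16 cells, and mouse line, flow cell and cell type coincide and cannot be told apart, nor can animal and sequencing lane within a type.

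Molecules were counted by random tags (unique molecular identifiers, UMI) on poly(A)-primed RNA. The ChC batches 1 to 4 held 448121, 556405, 2460679 and 1123083 UMI, and the Pv batches 5 to 8 held 392580, 430860, 316540 and 797177 UMI. Counts came from 63 cells of each type, after 1 ChC and 1 Pv cell without any count were left out, and cell depth had a median of 33244 UMI in ChC and of 23248 in Pv. Levels are given as CPM (a gene's UMI relative to 1e+06 UMI of the library), scaled by the trimmed mean of M values (TMM) over the 8 batches.

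The labels were checked against Pvalb, the gene whose locus drives Cre in the Pv line. Its level was 162, 203, 107 and 86.7 CPM in ChC batches 1 to 4 and 1789, 798, 551 and 1153 CPM in Pv batches 5 to 8. Every Pv batch lay above every ChC batch, as for 1.55% of all genes tested. In the test between the types described below, its log2 fold change, ChC over Pv, was −2.98 (SE 0.59, edgeR adjusted p = 0.582), so it was not called. Because Pv cells were picked by a reporter that this locus turns on, the check is not independent of the picking. Both types carried the GABAergic genes Gad1 (666 to 1737 CPM in ChC, 673 to 2863 in Pv), Gad2 (172 to 932 and 44.2 to 538) and Slc32a1 (1675 to 3061 and 1044 to 3586), and Nkx2-1, a transcription factor of their embryonic origin (63.7 to 78.7 and 22.6 to 88.7). The lowest Pv values of Gad1, Gad2 and Slc32a1 were all those of batch 7. Of 8 pyramidal cell markers, Slc17a6, Neurod6, Tbr1 and Emx1 were at 0 in all 8 batches, and the summed list ranged from 36.9 to 536 CPM in ChC and from 101 to 899 CPM in Pv, most of it Camk2a. Gfap of the 6 astrocyte markers, Mobp and Mag of the 6 oligodendrocyte markers, C1qa of the 6 microglial markers and Cldn5 of the 6 vascular markers were also at 0, and no marker of these lists separated the cell types by batch.

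Cells of 1 library batch were alike to a degree that bears on every value below. For genes with at least 100 UMI in a batch, a chi-square statistic that compared the cells after allowing for their depth had a median between 0.991 and 1.25 per degree of freedom in the 8 batches, where counting noise around a shared profile gives about 1. The pore subunits with that many UMI gave 0.268 to 1.76. The same animal could give batches far apart, as for Cacna1a in animal 3, which differed 5.72-fold between batches 5 and 6, or Cacna1g in animal 2, which differed 16.2-fold between batches 3 and 4. Over the genes tested below that had UMI in both batches of an animal (6893 to 9154 genes), the median fold between these batches was 2.31 to 2.92. Comparisons between the types therefore rest on batches and animals, and counts of cells below describe the batches they came from. Why cells of a batch were so alike was not tested.

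Relative to the length of their annotated exons, Cacna1a had the highest mean among the subunits in both cell types. In ChC it reached 40.8 ± 16.1 CPM per kb (SD, n = 4 batches) and was followed by Cacna1d at 34.3 ± 23.7, Cacna1g at 12.8 ± 13.7 and Cacna1c at 12.7 ± 12.0 CPM per kb. Cacna1i (3.44 ± 4.200), Cacna1b (2.98 ± 3.48) and Cacna1e (1.65 ± 1.25) came next, and Cacna1h was at 0. In Pv, Cacna1a at 35.8 ± 24.1 CPM per kb was followed by Cacna1c at 25.8 ± 6.47, Cacna1i at 6.63 ± 6.62 and Cacna1d at 5.42 ± 4.26, and the 4 other subunits lay between 0.108 and 0.670 CPM per kb. Neighbors in these orders overlapped between batches, except that all Pv batches of Cacna1c lay above all those of Cacna1i. Cacna1e also lay above Cacna1h in every ChC batch, but in batch 3 on 1 UMI against 0, fewer than the 3 UMI taken as a floor. The order without division by exon length was the same, with Cacna1d above Cacna1a in ChC batches 3 and 4. With the UMI of 2 overlapping neighbors taken off, as described below, Cacna1d stood at 187 ± 77.0 CPM in ChC and below Cacna1a in all 4 batches. Summing the rows of a gene name, which counts most molecules of Cacna1c and Cacna1d in both rows, changed the order. Cacna1d then led in ChC (522 against 266 CPM for Cacna1a) and Cacna1c in Pv (340 against 266 CPM). These CPM are relative to the total of the summed rows and without TMM, so they cannot be set beside the other levels. Per kb of genomic span, introns included, Cacna1g had the highest mean in ChC (1.63 ± 1.75 against 1.44 ± 0.567 CPM per kb for Cacna1a), and Cacna1a again led in Pv. On that scale Cacna1g lay above Cacna1a in ChC batch 3 alone, and its ChC median was lower (1.04 against 1.62 CPM per kb).

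**Figure D1:**
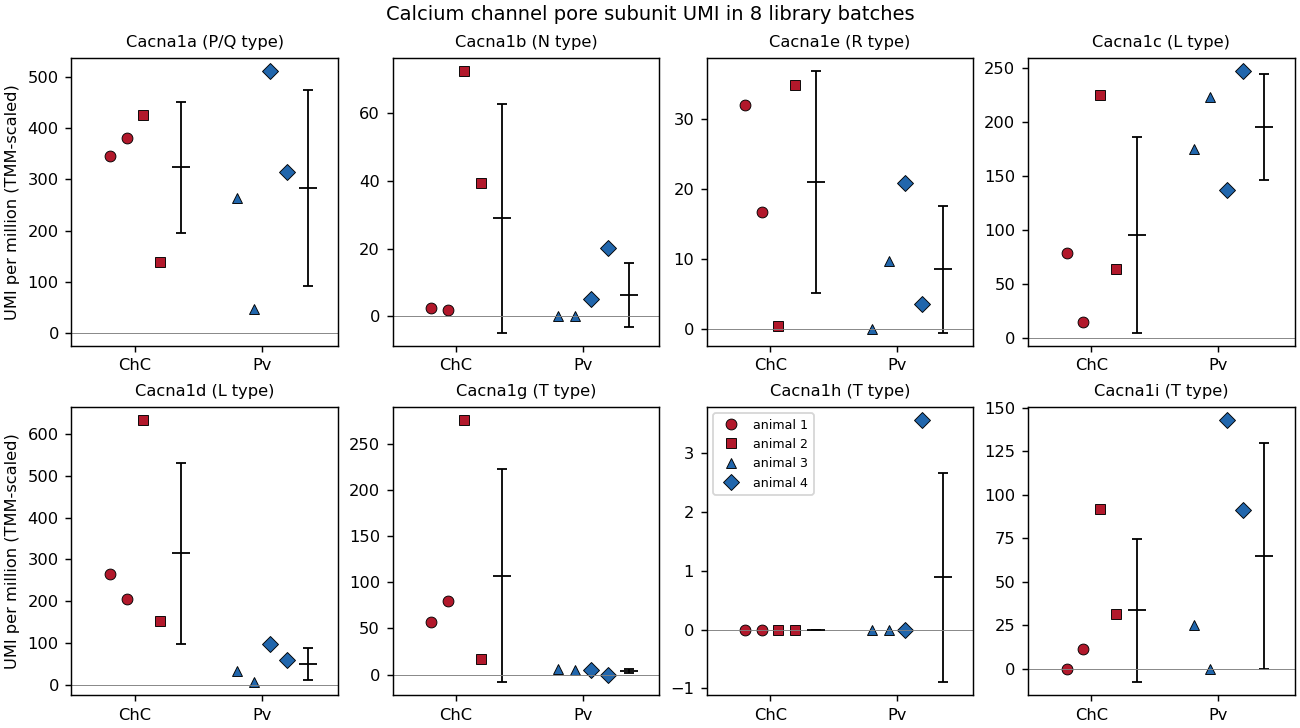
Level of each pore subunit gene in CPM (TMM-scaled, vertical axis, a separate scale per gene) in the 4 ChC and the 4 Pv library batches. Each point is a batch and its shape marks the animal, with the mean and SD of the 4 batches beside them. All ChC points lie above all Pv points for Cacna1d and Cacna1g, and the cell types overlap for the other genes.

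No pore subunit passed the test between the cell types. With UMI summed per animal, 2 ChC animals against 2 Pv animals, edgeR's quasi-likelihood test called 0 of the 7 subunits that passed its filter on low counts, beside 0.0% of the 9681 genes tested (Benjamini-Hochberg adjusted p under 0.05). Before adjustment, 618 genes (6.38%) had p under 0.05, among them Cacna1d and Cacna1g. DESeq2 on the same sums called 174 of 9480 genes, 97 of them higher in ChC (1.02%), including Cacna1g. In 2 of the 7 subunits all 4 ChC batches lay above all 4 Pv batches, beside 2.78% of all genes tested, and none lay below in every batch, beside 1.55%. With the spread seen between animals of a type, this test did not find 4-fold differences built into simulated counts, so a gene it did not call cannot be taken as alike in both types. The median log2 fold change of the 7 subunits was 1.24, against 0.05 over all genes tested, and nothing was read from it. With an animal left out it lay between 0.48 (without animal 2) and 1.75 (without animal 4), beside −0.28 and 0.57 over all genes. It was 0.24 over 6 subunits without batch 8 and −0.39 over the 4 tested with batches as samples.

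Cacna1a, on chromosome 8 from 86939263 to 87164148 in the mm9 build, encodes the P/Q type pore that dominates release at many central synapses. Its level was 347, 381, 427 and 139 CPM in ChC batches 1 to 4 and 263, 46.1, 512 and 314 CPM in Pv batches 5 to 8. The ranges overlapped, with both the lowest and the highest batch among the Pv cells. ChC stood over Pv by a log2 fold change of 0.41 (SE 0.69, edgeR adjusted p = 0.989). It turned to −0.084 without animal 3 and to −0.049 without batch 3, so no direction was read from it.

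Cacna1b (chromosome 2, 24461895 to 24618672) encodes the N type pore, the other main channel of release. It gave 1, 1, 181 and 44 UMI in ChC batches 1 to 4, or 2.46, 1.86, 72.5 and 39.3 CPM, and 0, 0, 2 and 17 UMI in Pv batches 5 to 8, or 0, 0, 5.20 and 20.2 CPM. Within each type, 1 animal held nearly all the counts, animal 2 in ChC and animal 4 in Pv. The log2 fold change was 2.00 (SE 2.04, edgeR adjusted p = 0.981) and turned to −1.83 without animal 2, so no direction was read from it.

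Cacna1e (chromosome 1, 156239649 to 156573050) encodes the R type pore, which adds to release and to calcium entry in dendrites. Its 13, 9, 1 and 39 UMI in ChC batches and 0, 4, 8 and 3 UMI in Pv batches corresponded to 32.0, 16.7, 0.401 and 34.9 CPM and to 0, 9.70, 20.8 and 3.56 CPM. Batch 3, the deepest library, held a single UMI of it, while batch 4 of the same animal held the most of all batches. The log2 fold change was 1.24 (SE 1.40, edgeR adjusted p = 0.989) and ranged from 0.40 without batch 8 to 2.04 without batch 3.

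The balance of the types that drive release leaned to Cacna1a in every batch. Of the UMI of Cacna1a, Cacna1b and Cacna1e together, Cacna1a made up 91.0%, 95.3%, 85.4% and 65.1% in ChC batches 1 to 4. In Pv batches 5 to 8 it made up 100%, 82.6%, 95.2% and 93.0%. The lowest share was that of ChC batch 4 (155 of 238 UMI, 95% Wilson interval 58.9 to 70.9%), where Cacna1b took 18.5% and Cacna1e 16.4%, and the Pv share of 82.6% rested on only 23 UMI (62.9 to 93.0%). Cacna1b took 14.5% in ChC batch 3 and at most 5.99% in any Pv batch. The interval of that Pv share (batch 8, 3.77 to 9.38%) lay below those of ChC batches 3 and 4 and above those of ChC batches 1 and 2, where Cacna1b took 0.645% and 0.465%. These intervals cover counting error only.

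The log2 ratio of Cacna1a to Cacna1b UMI, with 0.5 added to each count, needs no scaling between libraries. It was 6.56, 7.10, 2.55 and 1.81 in ChC batches 1 to 4 and 7.58, 5.29, 6.30 and 3.92 in Pv batches 5 to 8. ChC fell into a high and a low pair along its animals, 1 and 2, and Pv batches 6, 7 and 8 lay within the ChC range. Pv batches 5 and 6 held no UMI of Cacna1b, ChC batches 1 and 2 held 1 each and Pv batch 7 held 2. Their ratios, and the means that include them, therefore depend on the added 0.5 and on depth. The means were 4.50 ± 2.71 in ChC and 5.77 ± 1.55 in Pv (SD, n = 4 batches), a difference of −1.27 (two-sided exact permutation p = 0.4, where 0.0286 is the smallest p that 4 batches against 4 can give). Over animals the difference was −1.43 (exact permutation p = 0.667, smallest possible 0.333). With 1 in place of 0.5 added to each count, the batch difference was −0.91. Without animal 2 the batch difference turned to 1.06, so the lower ChC mean rested on that animal.

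The same lean was seen cell by cell. All 121 cells with a UMI of either gene held more Cacna1a than Cacna1b, 63 ChC and 58 Pv cells. Among cells with at least 10 UMI of both genes together, this held for 35 of 35 ChC and 25 of 25 Pv cells, in every batch except Pv batch 6, which had no such cell. The share is at its ceiling in both types, so it cannot show whether they differ. Since cells of a batch shared a profile, these counts describe 8 batches rather than 121 separate cells.

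**Figure D2:**
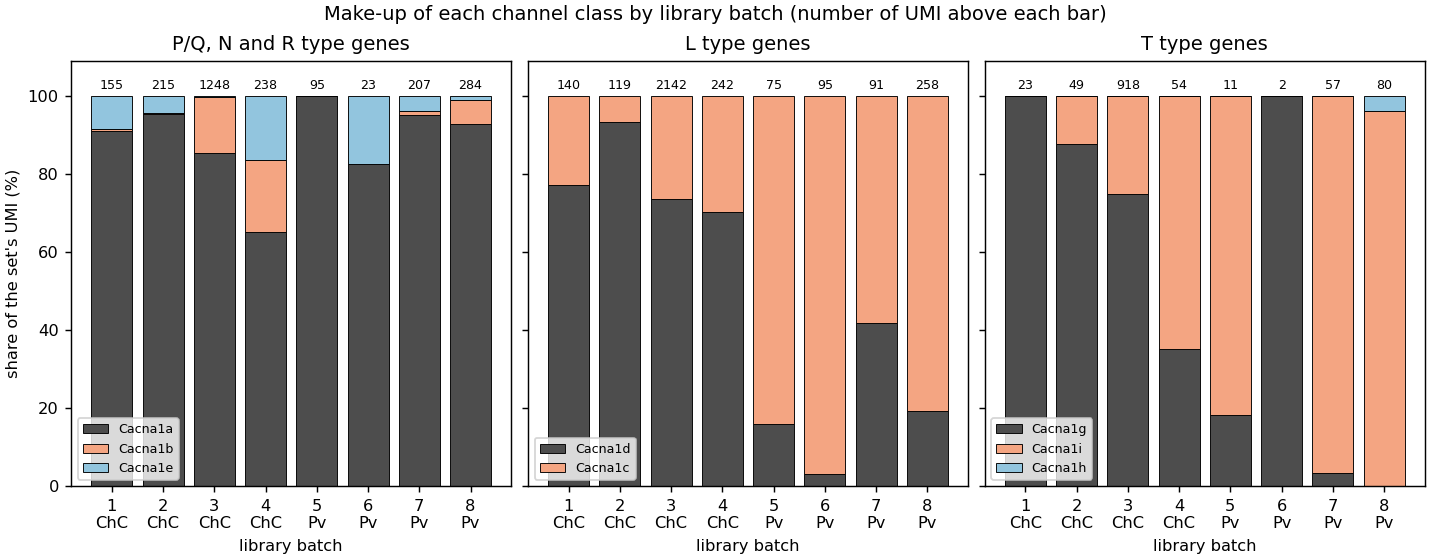
Share of each gene (vertical axis, percent) in the UMI of its channel class, for the P/Q, N and R types, the L type and the T type, in library batches 1 to 8, with the number of UMI above each bar. Cacna1a holds at least 65.1% of the first class in every batch, while the larger L type share belongs to Cacna1d in all ChC batches and to Cacna1c in all Pv batches.

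Which of the L type genes prevailed differed between the ChC and the Pv batches. Cacna1d (chromosome 14, 30853125 to 31304342), whose channels open at less depolarized potentials than those of Cacna1c, reached 266, 206, 632 and 152 CPM in ChC batches 1 to 4 and 33.3, 7.28, 98.7 and 59.4 CPM in Pv batches 5 to 8. Every ChC batch lay above every Pv batch, and batch 3 was the highest of all. The mean was 314 ± 217 CPM in ChC and 49.7 ± 39.01 CPM in Pv (SD, n = 4). The log2 fold change was 2.95 (SE 0.93), with an edgeR adjusted p of 0.610. It was 2.08 without batch 3 and 4.17 without animal 4. Among cells of at least 10000 UMI the median held 190, 170, 648 and 143 raw CPM of Cacna1d in ChC batches 1 to 4 and 12.6, 0, 139 and 54.5 in Pv batches 5 to 8, so ChC batch 4 and Pv batch 7 nearly met.

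Part of the Cacna1d signal may belong to neighbors on the opposite strand, since the strand used for counting was not stated in the sources used here. The 3′ end of Chdh, a choline-oxidizing enzyme of mitochondria, shares the last 528 bases of Cacna1d (30853125 to 30853652). Chdh gave 16, 53, 776 and 6 UMI in ChC batches 1 to 4 and 0, 0, 6 and 0 UMI in Pv batches, and 41 of the 42 cells with Chdh also held Cacna1d. Reads of these genes cannot be told apart there. At the other end, Dcp1a overlaps Cacna1d over 11592 bases and gave 140 UMI, 123 of them in batch 3. With the UMI of both neighbors taken off each cell, a step chosen after the values were seen, Cacna1d stood at 229, 108, 273 and 138 CPM in ChC and at 33.3, 7.28, 72.7 and 57.03 CPM in Pv. The types still did not overlap, and the log2 fold change was 2.24 (SE 1.01, edgeR adjusted p = 0.775).

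Cacna1c (chromosome 6, 118542314 to 119146427) encodes the L type pore best known for linking calcium entry to gene transcription in neurons. Its level was 78.7, 14.9, 225 and 64.4 CPM in ChC batches 1 to 4 and 175, 223, 138 and 247 CPM in Pv batches 5 to 8. Pv batches were high throughout, and only ChC batch 3 reached into their range. The log2 fold change was −0.94 (SE 0.92, edgeR adjusted p = 0.981), and it was −0.25 without animal 1, −2.29 without animal 2 and −1.92 without batch 3. Dcp1b, on the opposite strand, overlaps Cacna1c over 21157 bases and gave 56 UMI in 39 cells, all of which also held Cacna1c. With its UMI taken off, Cacna1c stood at 59.02, 9.30, 221 and 59.01 CPM in ChC and at 147, 196, 127 and 247 CPM in Pv.

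Set against each other, Cacna1d made up 77.1%, 93.3%, 73.7% and 70.2% of L type UMI in ChC batches 1 to 4 and 16.0%, 3.16%, 41.8% and 19.4% in Pv batches 5 to 8. The cell types did not overlap. The log2 ratio of Cacna1d to Cacna1c was 2.04 ± 1.13 in ChC and −2.40 ± 1.75 in Pv (SD, n = 4 batches), and it was positive in both ChC animals (2.44 and 1.46) and negative in both Pv animals (−3.33 and −1.56). With the UMI of Chdh, Dcp1a and Dcp1b taken off, the shares of Cacna1d were 79.5%, 92.1%, 55.3% and 70% in ChC and 18.5%, 3.57%, 36.4% and 18.8% in Pv. The ratio was then 1.72 ± 1.31 in ChC and −2.38 ± 1.56 in Pv, in ChC batch 3 it was 0.31 in place of 1.49, and the types still did not overlap. This ratio was singled out after its values were seen and was not tested. Cacna1d alone already separated the batches, and the share of gene pairs whose ratios do so was not computed.

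Among the T type genes, Cacna1g (chromosome 11, 94269705 to 94335512), a pore of low-threshold spikes and bursts, was nearly confined to ChC in these counts. It gave 23, 43, 688 and 19 UMI in ChC batches 1 to 4, or 56.6, 80.0, 276 and 16.99 CPM, and 2, 2, 2 and 0 UMI in Pv batches 5 to 8, or 5.55, 4.85, 5.20 and 0 CPM. All ChC batches lay above all Pv batches, and each Pv batch held fewer than the 3 UMI taken as the floor of a count of 0. The log2 fold change was 5.29 (SE 1.43, edgeR adjusted p = 0.582). DESeq2 gave 5.30 with an adjusted p of 0.00905, and over the 18 alternatives that gave an adjusted p it ranged from 0.00905 to 0.805. Batch 3 held 688 of the 779 UMI, and without it the log2 fold change was 3.66, while with an animal left out it was 4.33 to 6.30.

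Cacna1i (chromosome 15, 80117668 to 80228722), a T type pore found mainly in brain, was spread over both types. It stood at 0, 11.2, 92.1 and 31.3 CPM in ChC batches 1 to 4 and at 24.96, 0, 143 and 91.5 CPM in Pv batches 5 to 8. A batch without any UMI occurred in both types, and animals 2 and 4 held nearly all its counts. The log2 fold change was −0.59 (SE 1.54, edgeR adjusted p = 0.997) and turned to 0.30 without animal 1 and 1.75 without animal 4.

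Cacna1g thus made up 100%, 87.8%, 74.9% and 35.2% of T type UMI in ChC batches 1 to 4 and 18.2%, 100%, 3.51% and 0% in Pv batches 5 to 8. Pv batch 6 stood apart on only 2 T type UMI, and ChC batch 4 was the only ChC batch with more Cacna1i than Cacna1g. The log2 ratio of Cacna1g to Cacna1i averaged 2.25 ± 2.67 in ChC and −2.84 ± 4.08 in Pv (SD, n = 4 batches) with overlap, and like the L type ratio it was chosen after the values were seen and not tested.

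Cacna1h (chromosome 17, 25511232 to 25570728), the remaining T type pore, was not detected in ChC, where 0 of 63 cells held a UMI, and gave 3 UMI in Pv. They fell in 3 cells of batch 8, and the same 3 cells held the only 3 UMI of Tpsg1, a mast cell protease gene of the other strand that shares 156 bases with the 3′ end of Cacna1h. The molecules of these genes cannot be told apart, and at this depth no level of Cacna1h could be given for either type.

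Summed by class, the P/Q, N and R genes reached 373 ± 119 CPM in ChC and 299 ± 199 CPM in Pv (SD, n = 4 batches). The L type genes reached 410.0 ± 304 and 245 ± 42.6 CPM, and the T type genes 141 ± 152 and 69.6 ± 64.6 CPM. Sums here are as counted, with nothing taken off for UMI that may belong to overlapping neighbors. With all UMI of Chdh and Dcp1a taken off, Cacna1d alone fell from 314 ± 217 to 187 ± 77.0 CPM in ChC. How many of these UMI were also counted for Cacna1d is not known. All 8 genes together gave 782, 712, 1725 and 477 CPM in ChC batches and 502, 291, 922 and 739 CPM in Pv batches. The sums overlapped between the types in every class, and batch 3 was the highest ChC batch throughout.

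Detection over all cells of a type was broadest for Cacna1a, though in Pv batch 6 Cacna1c was found in more cells (12 against 10). A UMI of Cacna1a was found in 63 of 63 ChC and 58 of 63 Pv cells, of Cacna1d in 58 and 35, of Cacna1c in 47 and 55, of Cacna1g in 44 and 6, and of Cacna1i in 27 and 35 cells. Cacna1b was found in 28 ChC and 11 Pv cells and Cacna1e in 27 and 11. When each cell of at least 10000 UMI (48 ChC and 55 Pv cells) was thinned to that depth, the expected shares were 92.9% and 82.7% for Cacna1a, 89.7% and 39.3% for Cacna1d, 55.95% and 82.6% for Cacna1c and 51.3% and 6.45% for Cacna1g. Averaged over the Pv batches, the shares were 80.7% for Cacna1a and 81.9% for Cacna1c. Between batches these shares ranged widely. They ran from 80.5 to 98.96% in ChC and 34.7 to 99.8% in Pv for Cacna1a, and from 13.1 to 90.7% and 67.04 to 94.6% for Cacna1c, with overlap. For Cacna1d they ran from 81.8 to 99.9% and 8.36 to 75.4% and for Cacna1g from 17.4 to 94.7% and 0 to 9.51%, without overlap. Slc17a7, a vesicular glutamate transporter that GABAergic interneurons should lack, gave 23.8% in ChC and 31.1% in Pv at the same depth, with batches from 0 to 54.6% and from 0 to 98.4%, so no floor for expression was drawn from it. Its level was highest in Pv batch 7, at 286 CPM, and it was at 0 in ChC batches 1 and 3 and Pv batch 6. The other shares at this depth were 27.5% and 5.23% for Cacna1b, 17.6% and 8.43% for Cacna1e and 25.1% and 44.8% for Cacna1i, and Cacna1h was at 0% and 1.07%.

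A ChC held a UMI of 5 of the 8 genes in the median and a Pv cell of 3. Within each type, cells with more of the genes were deeper. The 50 ChC with 4 or more of the genes had a median of 49702.5 UMI and the other ChC a median of 5391 UMI. For the 30 Pv cells with 4 or more the median was 36011 UMI, and for the other Pv cells 20288 UMI. The part of depth in the difference between the types was not tested, and the difference was not read as one of channel repertoire. In the batches with at least 100 UMI of the gene (6 for Cacna1a, the 4 of ChC for Cacna1d and batch 3 for Cacna1b), the UMI of a cell spread around a constant share of its depth with a chi-square per degree of freedom of 0.482 to 1.76. The other batches held too few UMI for this.

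**Figure D3:**
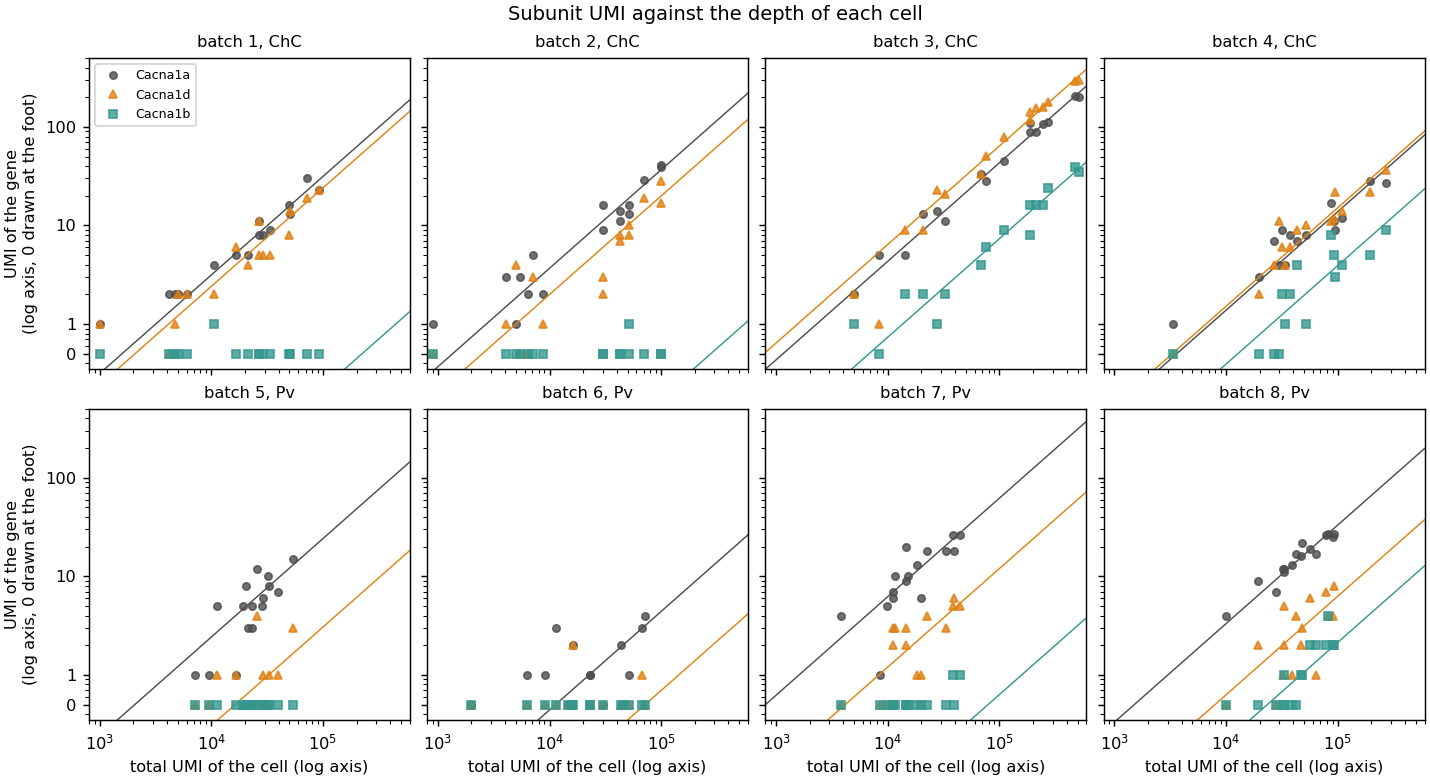
UMI of Cacna1a, Cacna1d and Cacna1b in each cell (vertical log axis, 0 drawn at the foot) against the total UMI of the cell (horizontal log axis) for library batches 1 to 8. Lines show a constant share of a cell's UMI, equal to the share in the whole batch. Points lie along the lines where counts are high, as for Cacna1a and Cacna1d in ChC batch 3, and scatter where they are low, as for Cacna1a in Pv batch 6. As counted, with nothing taken off for overlapping neighbors, the line of Cacna1d lies above that of Cacna1a in ChC batches 3 and 4.

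Among the auxiliary subunits, release proteins and other partners of these pores, edgeR on the animal sums called none of the 46 genes tested, of which 6 had p under 0.05 before adjustment (13.04%, beside 6.38% of all genes tested). DESeq2 called Cacna2d3 and Rims3, beside 174 of the 9480 genes it tested. Without its filter on low counts, edgeR called Cacna2d3 and Erc2, beside 84 of 16531 genes. The counts of genes that separated the types stand beside 2.78% (ChC above) and 1.55% (Pv above) of all genes tested. Of the 4 alpha2delta subunits, which traffic the pores to the membrane, Cacna2d3 alone separated the types, with 1030.4, 649, 460.2 and 110.0 CPM in ChC batches 1 to 4 and 16.6, 24.3, 106 and 22.6 CPM in Pv batches 5 to 8. ChC batch 4 and Pv batch 7 nearly met. Its log2 fold change was 4.04 (SE 0.83, edgeR adjusted p = 0.582, with a range of 0.00337 to 0.805 over the alternatives). By edgeR it was called without animal 2 (adjusted p = 0.0161) and without animal 4 (adjusted p = 0.0149), fits in which the single animal left of a type was assumed to vary like those of the other. With a batch or animal left out its log2 fold change lay between 3.18 and 4.76. Of the 3 tested of 4 beta subunits, which bind the pore inside the cell, none separated the types, and the most abundant, Cacnb4, stood at 358 ± 71.1 CPM in ChC and 667 ± 232 CPM in Pv (SD, n = 4). Of the 4 tested of 8 gamma family genes, none did so either, and Cacng2, which mostly serves glutamate receptors, stood at 237 ± 98.5 and 211 ± 138 CPM.

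Of 23 genes that couple calcium to release, 3 had batches that did not overlap, 2 with ChC above and 1 with Pv above, beside the 2.78% and 1.55% of all genes tested. Erc2, an active zone scaffold, stood at 1303, 1054, 930.4 and 425 CPM in ChC batches and 105, 160.1, 335 and 133 CPM in Pv batches. Syt1, the fast calcium sensor of fusion and the most abundant of the list, stood at 3778 ± 330.4 CPM in ChC and 2070 ± 602 CPM in Pv. Rimbp2, which tethers calcium channels to release sites, was the gene higher in Pv, at 7.38, 7.44, 21.2 and 18.8 CPM in ChC and 88.7, 80.1, 195 and 71.3 CPM in Pv. The log2 fold changes were 2.53 (SE 0.58), 0.83 (SE 0.36) and −2.79 (SE 1.25), with edgeR adjusted p of 0.582, 0.769 and 0.769. Rims3, a small member of the RIM family called by DESeq2, stood at 9.84, 115, 47.3 and 0.894 CPM in ChC batches and 0, 0, 2.60 and 0 CPM in Pv batches, with overlap. For Erc2 the adjusted p ranged from 0.0322, without the filter on low counts, to 0.805. The median log2 fold change of this list was 0.22, against 0.05 over all genes tested.

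None of the 8 tested of 9 calmodulin and channel partner genes separated the types. Of the 4 tested of 6 calcium-gated potassium channel genes, Kcnmb4, a BK channel subunit, was at 0 to 2.46 CPM in ChC batches and at 10.4 to 36.8 CPM in Pv batches (log2 fold change −4.54, SE 1.74, edgeR adjusted p = 0.685, with −6.18 without animal 1, −3.47 without animal 2 and −3.91 without batch 8). Kcnmb2, the most abundant of them, stood at 658 ± 205 CPM in ChC and 282 ± 140.1 CPM in Pv, with overlap.

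For each subunit, the gene most like it over the 8 batches was found by Pearson correlation of log2(CPM + 1) among genes with a mean of at least 20 CPM. For the release types these were Cspp1 for Cacna1a (r = 0.954), Rhobtb1 for Cacna1b (r = 0.972) and Olfr856-ps1 for Cacna1e (r = 0.965). For the L type they were Gnb2l1 for Cacna1c (r = 0.975) and Dennd1b for Cacna1d (r = 0.966), and for the T type Xkr4 for Cacna1g (r = 0.971), Atn1 for Cacna1i (r = 0.963) and Fam173b for Cacna1h (r = 0.993), the last resting on batch 8 alone. With 7816 or more genes compared on 8 points that share animals and depth, such values describe the pattern and no more. Among the subunits themselves r was highest for Cacna1d with Cacna1g (0.742) and with Cacna1a (0.728).

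Cacna1d is the L type gene most abundant in ChC and its table rows begin at a pair of start sites 137.67 kb apart, so its promoter windows are shown. RefSeq promoter entries (GRCm38.p6, 250 bases before to 50 after a start) were matched for 5 of the 8 genes. The row from the upstream start held 2071 UMI and the row from the downstream start 2038 UMI, with the same 3′ end, so at most 33 UMI lay outside the shorter row and the start in use could not be read from them. Capitals mark GGGCGG and TATAAA on either strand, searched in both windows on the minus strand of chromosome 14 and written 5′ to 3′.
Upstream start, chr14:30491107-30491406: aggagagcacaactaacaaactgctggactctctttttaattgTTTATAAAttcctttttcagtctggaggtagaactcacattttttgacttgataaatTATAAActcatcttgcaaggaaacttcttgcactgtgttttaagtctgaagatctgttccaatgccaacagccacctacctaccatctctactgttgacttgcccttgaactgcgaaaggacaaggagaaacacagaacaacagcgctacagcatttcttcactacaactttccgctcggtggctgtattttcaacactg
Downstream start, chr14:30353437-30353736: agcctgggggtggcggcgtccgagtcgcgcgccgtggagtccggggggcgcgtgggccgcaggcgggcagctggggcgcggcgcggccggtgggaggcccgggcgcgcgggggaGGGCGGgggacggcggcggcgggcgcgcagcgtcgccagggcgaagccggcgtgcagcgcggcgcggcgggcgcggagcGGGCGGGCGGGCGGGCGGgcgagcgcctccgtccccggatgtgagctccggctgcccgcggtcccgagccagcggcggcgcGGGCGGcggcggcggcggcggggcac
The windows differ sharply in composition. The upstream window is 40.3% G and C with 4 CG pairs, and the downstream window is 87.3% with 63, against medians of 52.7% and 7 over all 32851 promoter windows. GGGCGG occurs 6 times in the downstream window, counting overlaps, and not in the upstream window, and 35.7% of all windows hold it. TATAAA occurs 3 times in the upstream window, 1 of them on the opposite strand, and not in the downstream window, and 13.6% of all windows hold it. CTCAAG (15.9% of all windows) was in neither window, and CANNTG (72.3%) occurs 1 time in the downstream window, both searched on either strand and left in lower case. A match of letters is no evidence that a factor binds there.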

How the data were processed

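The authors aligned reads to mm9 with Bowtie 0.12.7, counted each tag once per transcript and cell, and deposited these UMI counts without normalization. The members and gene lists were chosen with earlier results of these data known. Rows of Cacna1b, Cacna1c and Cacna1d repeat nearly the same counts, so the row with the most UMI per gene name was used, a change from the planned sum of rows made after the counts were seen, and the sum became the alternative. Counts were summed per animal (2 against 2) and tested with edgeR 4.0.16 in R 4.3.3 (quasi-likelihood, TMM, filterByExpr, Benjamini-Hochberg), and SE is the fold change over the root of F. DESeq2 1.42.0, no TMM, no filter, batches as samples, deep or thinned cells, and omitted animals or batches were alternatives. Ratios were compared by two-sided exact permutation in Python 3.11.15 (numpy 2.4.6, scipy 1.17.1, pandas 2.3.3), and figures were drawn with matplotlib 3.10.9. The edgeR fit was tested on simulated counts with known 4-fold differences: it found them where the spread between samples was set low, in part over animals, but not at the spread of these data, over animals or batches. Exon lengths came from a GENCODE annotation of the same build. Beyond the 8 subunits and label checks, list genes were named where their batches did not overlap or DESeq2 called them, and otherwise the most abundant of each list, of which 1 is not reported here.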

Additional observations from a re-analysis of the deposited data

Results flagged for a closer look

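In 72 groups of 4 batches (the subunits, the label genes, list genes given with levels, overlapping neighbors and the ratios), 14 held a batch far from the other 3, and some of these genes were named because of such a batch. Among Pv batches, Cacna1g was at 0 CPM in batch 8, against 4.85 to 5.55 CPM in the others, which rest on 2 UMI each. Cacna1h and Tpsg1 both reached 3.56 CPM in batch 8 and 0 elsewhere, on 3 UMI each in the same cells. Cacna2d3 reached 106 CPM in batch 7 against 16.6 to 24.3 CPM. Rimbp2 reached 195 CPM in batch 7 against 71.3 to 88.7 CPM. Batch 7 also stood apart for Cacna2d1 (270 CPM against 40.4 to 65.5 CPM), Slc17a7 (286 CPM against 0 to 24.95 CPM), Chdh (15.6 CPM against 0 on 6 UMI) and Rims3 (2.60 CPM against 0 on 1 UMI), and batch 6 for Reln (167 CPM against 27.7 to 41.6 CPM). Among ChC batches, batch 4 stood apart for Cacna2d1 (1206 CPM against 58.5 to 130 CPM) and Reln (487 CPM against 14.02 to 36.9 CPM), and batch 1 for Dcp1b (19.7 CPM against 4.81 to 5.58 CPM) and Cacna1f (2.46 CPM against 0 on 1 UMI). Batch 7 was the shallowest library, with 316540 UMI, and had the largest TMM factor, 1.22. The part of depth in these values was not tested.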

How the results depend on the processing

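The count of genes called by edgeR was 0, and 618 had p under 0.05 before adjustment. It was 6 with batches as samples, 174 by DESeq2, 84 without the filter, 14 to 96 with an animal left out (96 without animal 4), where the single animal left of a type was assumed to vary like those of the other type, and 0 to 2 with a batch left out. The cause of these moves was not tested. The count of subunits called was 0 in all of these except DESeq2, which called 1, Cacna1g.

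The log2 ratio of Cacna1a to Cacna1b, ChC minus Pv, stayed negative except without animal 2, with a range of −3.59 to 1.06 over omitted animals and batches. The share of cells with more Cacna1a differed by −2.5 percentage points with rows summed, which counts most Cacna1b molecules in both of its rows. In the other settings that share was at its ceiling, so its constancy says nothing about stability. Of 240 fold changes under alternatives, of the 7 subunits tested, Pvalb, Cacna2d3, Erc2, Syt1, Rimbp2 and Kcnmb4, 5 turned sign, all on leaving out an animal or batch: Cacna1a (range −0.084 to 1.21), Cacna1b (−1.83 to 8.86) and Cacna1i (−3.21 to 1.75). With rows summed, Cacna1d led in ChC and Cacna1c in Pv, ahead of Cacna1a. No replicate number is shared between the cell types, and animals of a type ran in separate lanes of a flow cell of their own, so there was no block to fit. Counts in Pv were lowest for Cacna1b, Cacna1e, Cacna1g and Cacna1h, with 19, 15, 6 and 3 UMI in all, and Cacna1h had 0 UMI in ChC. The part of depth in these low counts was not tested.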

Other observations

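The other L type pore genes of the genome, Cacna1s of skeletal muscle and Cacna1f of the retina, were nearly absent. Cacna1s gave 41 UMI in ChC batch 3 and 5 in batch 4 and none in the 6 other batches, so all of it came from animal 2, and Cacna1f gave 1 UMI in ChC batch 1. Neither passed the filter on low counts.

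Cacna2d1, an alpha2delta subunit singled out after its values were seen, stood at 1206 CPM in ChC batch 4 and at 58.5 CPM in batch 3 of the same animal. In batch 4 the astrocyte list summed to 709 CPM and the microglial list to 107 CPM, the highest values of the 8 batches for both, with Gfap and C1qa at 0. Pv batch 7 came close on the astrocyte list, at 686 CPM, and was highest on the pyramidal list, at 899 CPM against 536 CPM in batch 4. It had the lowest Pv values of Gad1, Gad2 and Slc32a1. Its GABAergic list summed to 2346 CPM, against 4700 to 6614 CPM in the other batches of both types. Batch 7 was also the highest Pv batch for Cacna1a, Cacna1d, Cacna1e and Cacna1i, whose log2 fold changes without it were 0.58, 3.14, 1.94 and −0.42. The list of caudal ganglionic interneurons, with Cck its most abundant gene and Vip at 0, summed to 834 CPM in batch 4, 541 CPM in Pv batch 6 and 66.4 to 310 CPM elsewhere. Of it, Reln stood at 487 CPM in batch 4 against 14.02 to 167 CPM in the other batches, whereas Cck was highest in Pv batch 6, at 374 CPM against 347 CPM in batch 4. The part of other cells in the values of batch 7 and of batch 4, where the share of Cacna1a among release types was lowest, was not tested.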
